A study of Mus musculus with 12 samples.

Results

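The genes described here are 37 genes of ribosome biogenesis and the nucleolus, the nuclear compartment in which ribosomal RNA is made and assembled. They were chosen by symbol, as the entries of the deposited expression matrix whose mouse Ensembl identifier carries 1 of 37 named symbols. All 37 symbols were found among 54104 entries with an Ensembl identifier. The study sequenced total RNA from 12 mouse samples labelled by a surface marker (Ly6C or Ly6G) and a tissue (spleen or tumor), with 3 libraries in each of 4 groups, and its design text calls them PMN-MDSCs and M-MDSCs, the granulocytic and monocytic kinds of myeloid-derived suppressor cell. Ly6C and Ly6G are surface proteins by which such cells are usually gated. The labels give no strain, age, tumor model, gate or treatment, and do not say whether tumor and spleen came from the same animals. Nothing ties a library number to an animal, so p-values measure the spread between these libraries, which may be technical.

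A ribosome starts in the nucleolus, where RNA polymerase I copies the ribosomal DNA into a long precursor. Small nucleolar ribonucleoproteins (snoRNPs) then modify that precursor, large processing complexes cut and fold it, and assembly factors join ribosomal proteins to it as the small (40S) and large (60S) subunits form. Cells raise this pathway when they grow, and the transcription factor MYC is known to drive many of its genes.

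Every value below is an FPKM, that is, fragments scaled by the length of the gene and by the mapped fragments of the library. A comparison of levels between genes is one of FPKM and rests on the length assigned to each entry, which was not checked. Values of a group are given in the order of libraries 1, 2 and 3. A change is a difference of group means of log2(FPKM + 1), given with its standard error (SE), and it understates the change of genes with low FPKM. A gene passed at an adjusted p under 0.05 over all 13610 genes tested in limma. The files hold no counts, so the depth behind a value is unknown, and 3 libraries a group limit the precision.

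The genes of the 2 surface markers did not separate the labels fully. Ly6g was at 166 ± 40.05 FPKM in Ly6C spleen, 12.96 ± 1.03 in Ly6C tumor, 651 ± 63.5 in Ly6G spleen and 39.1 ± 13.02 in Ly6G tumor (SD, n = 3), so it was higher in the Ly6G libraries of each tissue and fell in tumor under both labels. Ly6c2, the Ly6C gene on the tested list, was at 247 ± 24.8, 7.05 ± 0.976, 214 ± 38.6 and 6.69 ± 1.27 FPKM in those 4 groups. Its difference between Ly6C and Ly6G libraries was 0.22 ± 0.17 in spleen (adjusted p = 0.38) and 0.07 ± 0.17 in tumor (adjusted p = 0.818) and passed in neither, and it was low in every tumor library.

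Ribosome biogenesis genes were higher in tumor than in spleen under both labels. In Ly6C libraries all 37 rose, by a median of 1.94 on the log2 scale, where the median of all genes tested was 0.27. Passing as higher was common in this comparison, at 46.2% of all genes, while 30.5% passed as lower. In Ly6G libraries 35 of 37 rose and 0 fell in limma (0 also at an unadjusted p under 0.05), with a median change of 1.67 beside 0.43 for all genes, of which 51.5% passed as higher and 24.7% as lower. The 2 genes that did not pass in Ly6G were Utp14a (0.16 ± 0.13, adjusted p = 0.284) and Wdr74 (0.82 ± 0.65, adjusted p = 0.266). In bulk RNA, a larger share of cells with high levels and more RNA per cell cannot be told apart.

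Most of these differences were large. A rise of at least 2-fold that passed was seen for 31 of 37 genes in Ly6C and 30 of 37 in Ly6G, against 28.7% and 31% of all genes. In Ly6C all 37 genes were lower in every spleen library than in every tumor library, an ordering that 47% of all genes showed. In Ly6G the libraries did not overlap for 34 of the 37, against 53.2% of all genes, and they overlapped for Nop10, Utp14a and Wdr74. The filter for testing (at least 1 FPKM in at least 3 libraries) was met by all 37 genes. For 35 of them the spleen libraries alone met it, while Nop58 and Wdr12 met it only through tumor libraries, where they are high. Without those 2, 35 of 35 genes rose in Ly6C and 33 of 35 in Ly6G.

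**Figure D1:**
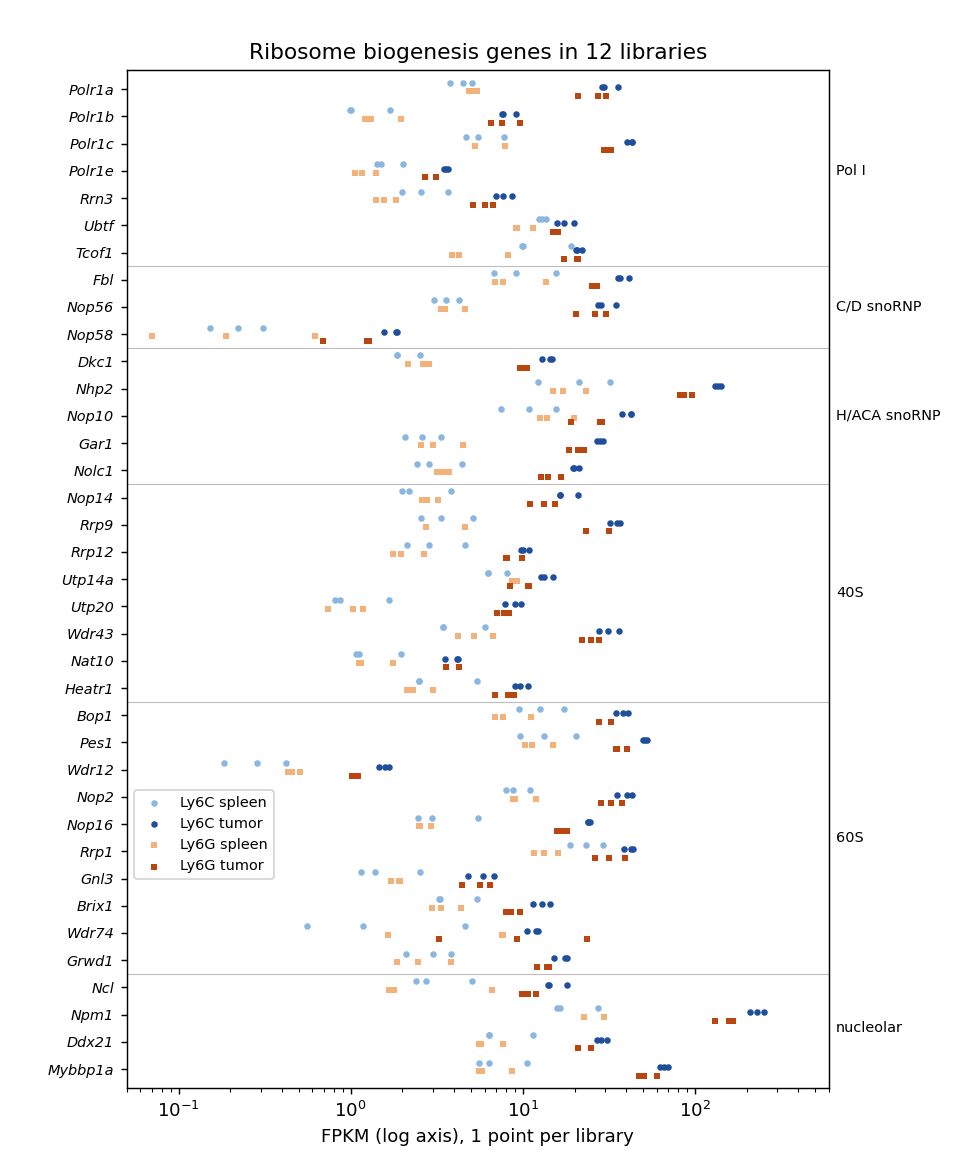
FPKM of each of the 37 genes (rows, grouped by role) in each of 12 libraries, on a log axis; circles are Ly6C and squares Ly6G libraries, pale for spleen and dark for tumor. In Ly6C the dark and pale points separate in all 37 rows, and in Ly6G in 34, with overlap for Nop10, Utp14a and Wdr74.

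Several other measurements changed between the same libraries, and their part in these results was not tested. All 20 pan-leukocyte genes were lower in tumor under both labels, their summed FPKM being 5837 to 6727 in Ly6C spleen, 299 to 633 in Ly6C tumor, 7830 to 8358 in Ly6G spleen and 821 to 1442 in Ly6G tumor. The leukocyte phosphatase gene Ptprc (CD45) was at 33.9 ± 6.63 and 3.76 ± 1.05 FPKM in Ly6C spleen and tumor, and at 40.8 ± 10.1 and 11.8 ± 3.62 in Ly6G spleen and tumor (SD, n = 3). Of 18 keratin, collagen and adherent cell genes, 14 were tested, and 10 were higher in Ly6C tumor and 14 in Ly6G tumor. Their summed FPKM was 118 to 312 in Ly6C spleen, 2115 to 2205 in Ly6C tumor, 14.001 to 20.2 in Ly6G spleen and 1685 to 1727 in Ly6G tumor. The Ly6C spleen sum was mostly Fn1 (146 ± 73.5 FPKM) and Thbs1 (57.3 ± 25.4). Fn1 went the other way in Ly6C (52.3 ± 11.6 in tumor), a fall that did not pass, while 13 of the 14 tested genes had a positive change there. Krt7 and Krt19 stayed under 1 FPKM in all 12 libraries. The epithelial keratin Krt8 went from 0.0694 ± 0.0812 to 670.3 ± 96.9 FPKM in Ly6C and from 0.136 ± 0.109 to 483 ± 113 in Ly6G, and the collagen Col3a1 from 0.0191 ± 0.0128 to 236 ± 81.5 and from 0.0603 ± 0.0309 to 167 ± 70.1. The epithelial adhesion gene Epcam was listed at 0 in 5 of 6 tumor libraries.

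Markers of B cells, T cells and erythroid cells were lower in tumor. All 8 B cell genes were lower under both labels, with sums of 114 to 172 FPKM in Ly6C spleen, 4.93 to 6.53 in Ly6C tumor, 333 to 669.9 in Ly6G spleen and 4.40 to 5.25 in Ly6G tumor. Cd79a, a part of the B cell receptor, was at 77.1 ± 11.3, 4.09 ± 0.977, 247 ± 102 and 3.02 ± 0.568 FPKM in those 4 groups. All 5 tested T cell genes were lower under both labels, and so were 9 of 10 erythroid genes in Ly6C and 10 of 10 in Ly6G, with the globin Hbb-bs at 200.1 ± 97.9 and 20.9 ± 1.56 FPKM in Ly6C spleen and tumor. Of 12 neutrophil and monocyte genes, which mark the labelled cells themselves, 12 were lower in Ly6C tumor and 11 in Ly6G tumor. Cell cycle genes did not follow the ribosome biogenesis genes: of 14, 2 were higher and 10 lower in Ly6C tumor, and 2 were higher and 5 lower in Ly6G tumor. The median change of the 14 was -0.78 in Ly6C and 0.05 in Ly6G, with 3 and 7 of the 14 changes positive. The proliferation marker Mki67, whose fall was among the largest of the 14, was at 31.5 ± 1.604 and 6.03 ± 1.30 FPKM in Ly6C spleen and tumor and at 17.2 ± 3.60 and 5.46 ± 0.535 in Ly6G spleen and tumor. Mcm3, another of the 14, went the other way, from 25.9 ± 3.58 to 43.1 ± 2.63 FPKM in Ly6C and from 10.9 ± 1.93 to 30.2 ± 5.53 in Ly6G. On a scale set by the pan-leukocyte genes, which moves the median change of all genes to 3.15 and 2.24, Mki67 was at 1.24 in Ly6C and 0.95 in Ly6G, below that median in each.

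**Figure D2:**
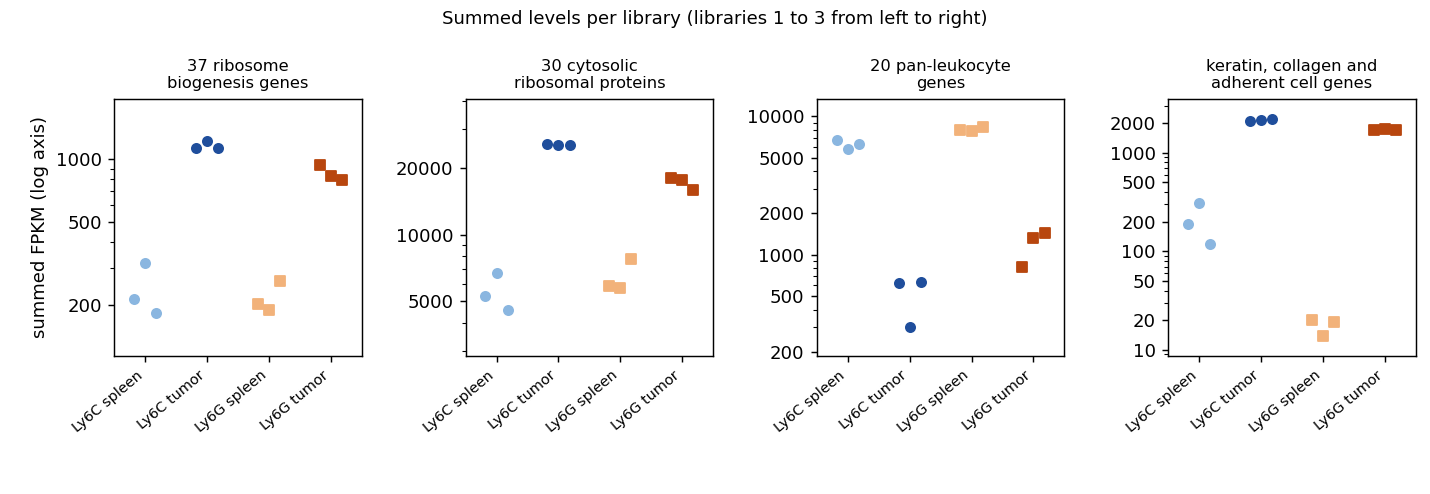
Summed FPKM (log axes that differ between panels) of the 37 ribosome biogenesis genes, 30 cytosolic ribosomal protein genes, 20 pan-leukocyte genes and the keratin, collagen and adherent cell genes, with 1 point per library. All sums but the pan-leukocyte one are higher in every tumor library than in any spleen library of the same label, and the pan-leukocyte sum is lower in every tumor library.

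The summed level of the 37 genes was 214, 318 and 183 FPKM in Ly6C spleen, 1127, 1215 and 1131 in Ly6C tumor, 204, 189.6 and 259.9 in Ly6G spleen, and 941, 833 and 797 in Ly6G tumor. Tumor libraries thus held 797 to 1215 FPKM and spleen libraries 183 to 318, with no overlap. The median of the 37 group means was 3.64 FPKM in Ly6C spleen, 20.2 in Ly6C tumor, 3.58 in Ly6G spleen and 15.5 in Ly6G tumor. The spleen libraries differed among themselves in a coordinated way. Ly6C spleen library 2 was the highest of its group for 33 of the 37 genes, and Ly6G spleen library 3 for 28. These 2 libraries also had the lowest share of FPKM in the neutrophil genes S100a8 and S100a9 within their groups, at 14.6% beside 17.4% and 22.8%, and at 23.3% beside 30.5% and 29.99%. In tumor that share was 0.33% to 2.18%. The FPKM of all entries summed to 331681 to 449309 per library, and mitochondrially encoded genes took 1.68% to 11.9%, the most in library 3 of both tumor groups. Without Ly6C spleen library 2 and Ly6G spleen library 3, the 37 and 35 rises were found again, with medians of 2.12 and 1.77. Of all genes, 48% and 52% passed as higher there.

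How the libraries are scaled sets the size of these changes, and the ribosome biogenesis genes stayed above the median of all genes. On the deposited scale the median change of the 37 genes exceeded that of all genes by 1.67 in Ly6C and by 1.24 in Ly6G. With median-of-ratios factors, which set the median of all genes to 0.02 and 0.03, the excess was 1.63 and 1.20. There, 35 genes rose in Ly6C (39.3% of all genes), while in Ly6G 33 rose and 1, Utp14a, fell (-0.34, adjusted p = 0.00977), beside 38.6% and 37% of all genes. After quantile normalization 36 rose in Ly6C and 31 in Ly6G (38.4% and 37.2% of all genes). Of all genes that passed, 60.2% were higher in Ly6C tumor and 67.6% in Ly6G tumor on the deposited scale, and with median-of-ratios factors 51.1% in each. When each library was instead scaled by its level of the 20 pan-leukocyte genes (their geometric mean), the median of all genes moved to 3.15 and 2.24, and all 37 genes were higher under both labels, by medians of 5.16 and 3.82. On that scale 90.5% and 88.6% of all genes were higher, so the count says little about the 37.

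**Figure D3:**
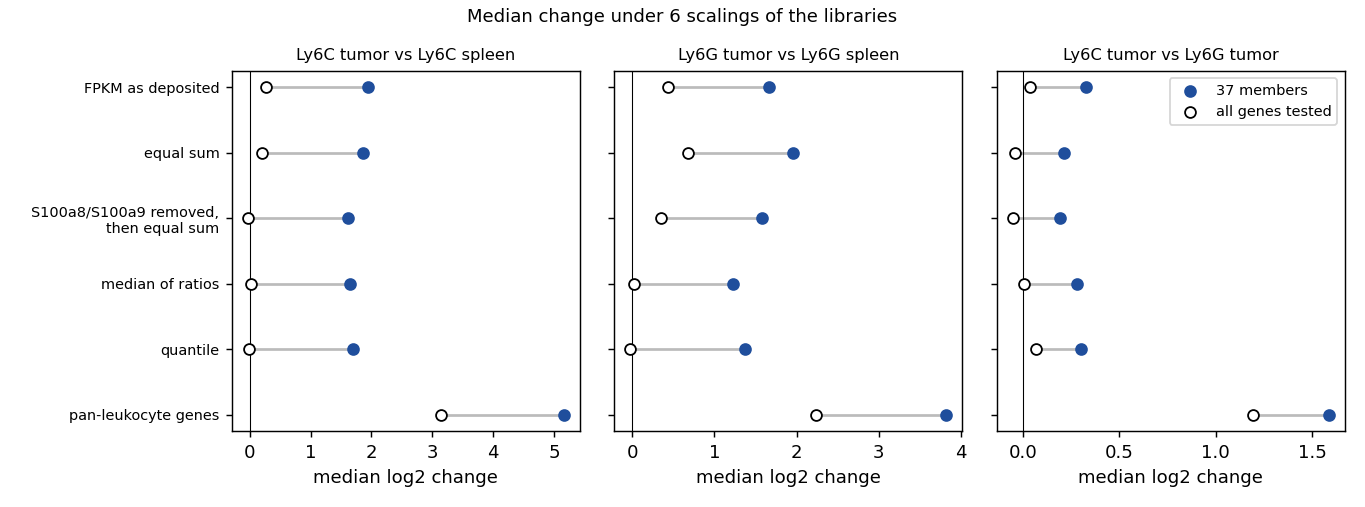
Median log2 change of the 37 genes (filled) and of all genes tested (open) under 6 scalings of the libraries, for 3 comparisons in 3 panels. The filled point lies to the right of the open one in every row, and both move far to the right on the pan-leukocyte scale, to 5.16 and 3.15 in Ly6C.

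The promoters of genes that rose together were read from RefSeq windows of 300 bases (250 before and 50 after the start site, build GRCm38.p6), which were present for 32 of the 37 genes (all but Tcof1, Fbl, Rrp12, Bop1 and Npm1). The E-box CACGTG, the element that MYC binds with its partner MAX and which reads the same on both strands, was found in 7 of 32 (21.9%). It was found in 8.09% of all 27025 genes with a window and in 11.9% of the 9168 genes that were also tested for expression. The letters GCATGCGC, the core of the element of the respiratory factor NRF1, were found on either strand in 1 of 32 (3.12%, Ubtf), in 3.05% of all genes and in 6.1% of tested genes. Some genes had several windows, and a gene was counted if any of its windows held the motif. Ubtf had 6 windows and Wdr12 had 3. The 2 motifs share no overlap in their letters as searched. The 7 genes with an E-box held 8 matches, 3 before and 5 after the start site. Their median change was 2.19 in Ly6C and 1.98 in Ly6G, beside 1.94 and 1.62 for the 25 genes without one, given as a description. The stretches that hold the 8 matches are shown 5′ to 3′ on the gene's strand, with the E-box in capitals, to place the element in each gene. Rrn3 (chr16:13780449-13780698, plus strand) is shown from 250 bases before its start site, Nop2 (chr6:125131783-125131882, plus strand), Pes1 (chr11:3963875-3964004, plus strand) and Wdr43 (chr17:71616115-71616244, plus strand) from 100 bases before it, and of Utp20 (chr10:88826772-88826801, minus strand), Grwd1 (chr7:45830750-45830779, minus strand) and Mybbp1a (chr11:72441343-72441372, plus strand) 30 bases within the 50 after the RefSeq start site are shown.
Rrn3: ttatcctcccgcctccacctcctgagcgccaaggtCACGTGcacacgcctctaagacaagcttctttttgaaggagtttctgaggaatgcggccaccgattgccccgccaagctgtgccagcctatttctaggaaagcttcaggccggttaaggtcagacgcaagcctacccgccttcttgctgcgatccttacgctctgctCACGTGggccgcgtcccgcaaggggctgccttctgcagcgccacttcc
Nop2: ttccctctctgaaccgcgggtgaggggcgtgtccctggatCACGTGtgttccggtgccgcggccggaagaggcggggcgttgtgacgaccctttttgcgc
Pes1: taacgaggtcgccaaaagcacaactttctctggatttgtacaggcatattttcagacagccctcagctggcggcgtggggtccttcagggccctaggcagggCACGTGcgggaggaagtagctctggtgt
Wdr43: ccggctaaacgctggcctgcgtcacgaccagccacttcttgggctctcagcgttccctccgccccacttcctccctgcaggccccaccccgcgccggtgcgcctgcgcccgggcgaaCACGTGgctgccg
Utp20: ggcggcgcccagcggcactaactaCACGTG
Grwd1: ggcggcgcgcaagggccggagtcgCACGTG
Mybbp1a: ctggaagtgactgtcttctgagccCACGTG
A match of 6 letters describes the window and does not show that a factor was bound in these cells. The windows held matches in genes of every role except the snoRNP proteins.

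Among the 7 genes of RNA polymerase I transcription, all rose under both labels, by a median of 1.26 in Ly6C and 1.74 in Ly6G. Polr1a, Polr1b and Polr1c had the 3 largest changes. Polr1a, the largest catalytic subunit, changed by 2.57 ± 0.15 and 2.15 ± 0.15. Polr1b, the second largest subunit, stood at 1.011, 1.70 and 0.996 in Ly6C spleen, 7.67, 9.14 and 7.54 in Ly6C tumor, 1.31, 1.22 and 1.95 in Ly6G spleen and 9.61, 7.57 and 6.52 in Ly6G tumor FPKM. Every tumor library was above every spleen library, and the tumor groups overlapped. The change was 2.04 ± 0.17 in Ly6C (adjusted p = 4.94e-07) and 1.83 ± 0.17 in Ly6G (1.36e-06). Polr1c, a subunit shared with RNA polymerase III, had the largest change of the group under both labels. It stood at 5.47, 7.77 and 4.70 in Ly6C spleen, 43.2, 43.1 and 40.5 in Ly6C tumor, 5.27, 5.25 and 7.88 in Ly6G spleen and 32.6, 29.7 and 31.2 in Ly6G tumor FPKM. All Ly6C tumor libraries were above all Ly6G tumor libraries, and the spleen groups overlapped. The changes were 2.66 ± 0.17 and 2.19 ± 0.17. Polr1e, a polymerase-associated subunit, changed by 0.80 ± 0.11 and 0.80 ± 0.11.

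Rrn3, Ubtf and Tcof1 bring RNA polymerase I to the ribosomal DNA. Rrn3 (TIF-IA), which links the polymerase to its promoter complex and whose 2 upstream E-boxes are shown above, stood at 1.98, 3.67 and 2.55 in Ly6C spleen, 6.99, 8.70 and 7.73 in Ly6C tumor, 1.40, 1.57 and 1.83 in Ly6G spleen and 6.04, 6.74 and 5.11 in Ly6G tumor FPKM. Tumor libraries were again all above spleen libraries, and all Ly6C libraries were above the Ly6G libraries of the same tissue. Its change was 1.26 ± 0.16 in Ly6C and 1.42 ± 0.16 in Ly6G. Ubtf, the architectural factor that keeps ribosomal DNA open, had the smallest change of the 37 genes in Ly6C. It stood at 13.6, 12.4 and 13.01 in Ly6C spleen, 17.4, 19.8 and 15.8 in Ly6C tumor, 11.4, 9.19 and 9.26 in Ly6G spleen and 15.0, 16.0 and 15.4 in Ly6G tumor FPKM. The tumor libraries lay above the spleen libraries by a narrow margin in Ly6C and a wider one in Ly6G. The change was 0.41 ± 0.11 (adjusted p = 0.0058) and 0.59 ± 0.11 (0.000498). Both calls were lost after quantile normalization (0.29 ± 0.12 and 0.28 ± 0.12) and with median-of-ratios factors (0.11 ± 0.12 and 0.09 ± 0.12), and in Ly6C also after S100a8 and S100a9 were removed (0.05 ± 0.13). Tcof1 (treacle), which recruits the polymerase and the methylation machinery, stood at 9.91, 19.1 and 9.98 in Ly6C spleen, 22.1, 20.8 and 20.5 in Ly6C tumor, 4.24, 3.86 and 8.21 in Ly6G spleen and 20.7, 17.3 and 20.9 in Ly6G tumor FPKM. Ly6C spleen library 2 came close to the tumor libraries, and the other spleen libraries were well below them. The change was 0.72 ± 0.26 in Ly6C (adjusted p = 0.0251), a call lost when any of 4 libraries was left out, and 1.74 ± 0.26 in Ly6G. Without Ly6C spleen library 1 it was 0.57 ± 0.29, without Ly6C spleen library 3 it was 0.58 ± 0.29, without Ly6C tumor library 1 it was 0.69 ± 0.31, and without Ly6C tumor library 2 it was 0.73 ± 0.31. The call was also lost at an equal sum (0.63 ± 0.27), with median-of-ratios factors (0.42 ± 0.23) and after S100a8 and S100a9 were removed (0.36 ± 0.25). Without the expression filter the change stayed at 0.72 and the adjusted p was 0.0568.

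The 3 proteins of box C/D snoRNPs, which add methyl groups to ribosomal RNA, all rose under both labels (medians 1.83 and 1.43). Of these, Nop58 met the filter for testing only through tumor libraries, where it is high. Fbl (fibrillarin), the methyltransferase itself, stood at 9.15, 15.7 and 6.76 in Ly6C spleen, 41.5, 36.6 and 35.9 in Ly6C tumor, 7.69, 6.88 and 13.7 in Ly6G spleen and 26.9, 25.3 and 25.9 in Ly6G tumor FPKM. Under each label the highest spleen library was well below the lowest tumor library, and Ly6C tumor was above Ly6G tumor in all libraries. The changes were 1.83 ± 0.27 and 1.43 ± 0.27. Nop56, a core scaffold protein, stood at 3.58, 4.24 and 3.04 in Ly6C spleen, 27.5, 35.02 and 28.6 in Ly6C tumor, 3.52, 3.35 and 4.61 in Ly6G spleen and 30.5, 26.2 and 20.4 in Ly6G tumor FPKM. Spleen values were tightly grouped and far below all tumor values. Its changes, 2.76 ± 0.17 and 2.46 ± 0.17, were the largest of the 3. Nop58, the partner scaffold, had the lowest level and the smallest changes of the group. It stood at 0.31, 0.22 and 0.151 in Ly6C spleen, 1.56, 1.82 and 1.87 in Ly6C tumor, 0.0705, 0.622 and 0.19 in Ly6G spleen and 1.28, 1.25 and 0.694 in Ly6G tumor FPKM. Ly6G spleen library 2 nearly reached Ly6G tumor library 3, and in Ly6C the groups were far apart. The changes were 1.16 ± 0.16 and 0.69 ± 0.16 on the log2(FPKM + 1) scale, where values below 1 are compressed, and the Ly6G call was lost after quantile normalization (0.13 ± 0.18).

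Small RNA genes inside 2 of these genes carried more FPKM than their hosts. Many snoRNAs are made from the introns of ribosome biogenesis genes, and 6 of the 37 genes (16.2%) host an annotated snoRNA gene, against 195 of 11298 tested protein-coding genes (1.73%). Snora75, inside Ncl on the same strand, stood at 26.4, 36.7 and 6.55 FPKM in Ly6C spleen, 172.9, 249.3 and 208.5 in Ly6C tumor, 11.6, 35.9 and 46.5 in Ly6G spleen, and 160.2, 153 and 126 in Ly6G tumor. Ncl itself (nucleolin, an abundant nucleolar RNA-binding protein) stood at 2.41, 2.74 and 5.10 in Ly6C spleen, 14.1, 18.1 and 14.2 in Ly6C tumor, 6.67, 1.79 and 1.67 in Ly6G spleen and 11.9, 10.7 and 9.92 in Ly6G tumor FPKM. The tumor libraries were above the spleen libraries for both entries. Within each spleen group Ncl was highest where Snora75 was lowest, in Ly6C spleen library 3 and Ly6G spleen library 1. Between Ly6C spleen libraries 1 and 2, both entries were higher in library 2. Snord11, inside Nop58 on the same strand, stood at 1.62, 3.31 and 1.89 FPKM in Ly6C spleen, 19.99, 35.1 and 24.9 in Ly6C tumor, 3.02, 1.33 and 3.46 in Ly6G spleen, and 21.7, 18.7 and 17.6 in Ly6G tumor. It was lowest in Ly6G spleen library 2, where Nop58 was highest in that group. In all, 4 of 21 small RNA genes inside the 37 genes on the same strand had a mean above their host.

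Both small RNA entries rose in tumor under both labels. Snora75 changed by 3.40 ± 0.56 in Ly6C and 2.39 ± 0.56 in Ly6G, beside 1.94 ± 0.35 and 1.62 ± 0.35 for Ncl. Snord11 changed by 3.08 ± 0.27 and 2.55 ± 0.27. FPKM is per length of each entry, and a snoRNA gene is far shorter than its host, so few fragments give a high value and the values of a pair cannot be added. Whether fragments of the host transcripts were listed under the small RNA genes was not tested, so the levels of Ncl and Nop58 are uncertain.

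**Figure D4:**
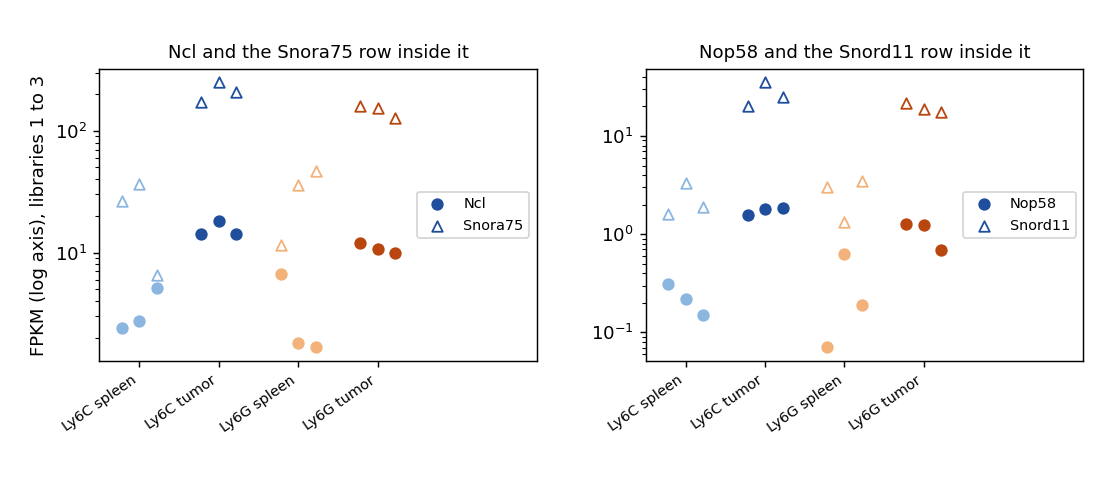
FPKM (log axes that differ between panels) of Ncl and Nop58 (filled circles) and of the snoRNA genes Snora75 and Snord11 inside them (open triangles), with 1 point per library. The triangles lie above the circles in all 12 libraries of both panels, and within each spleen group Ncl is highest where Snora75 is lowest.

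The 5 genes of box H/ACA snoRNPs, which turn uridines of ribosomal RNA into pseudouridines, and of their chaperone all rose under both labels (medians 2.35 and 1.80). Dkc1 (dyskerin), the pseudouridine synthase, stood at 1.85, 2.52 and 1.87 in Ly6C spleen, 12.9, 14.5 and 14.8 in Ly6C tumor, 2.16, 2.62 and 2.85 in Ly6G spleen and 10.4, 10.6 and 9.68 in Ly6G tumor FPKM. Values within each group were close, and every Ly6C tumor library was above every Ly6G tumor library. The changes were 2.29 ± 0.12 and 1.67 ± 0.12. Gar1, a core protein of the particle, had the largest change of the group. It stood at 2.59, 3.33 and 2.08 in Ly6C spleen, 27.1, 29.1 and 28.1 in Ly6C tumor, 2.99, 2.57 and 4.47 in Ly6G spleen and 22.6, 20.9 and 18.6 in Ly6G tumor FPKM. No tumor library came within the range of any spleen library. The changes were 3.004 ± 0.17 and 2.34 ± 0.17, or 10.6-fold and 6.18-fold as ratios of mean FPKM. Nop10, the smallest core protein, stood at 10.9, 15.7 and 7.48 in Ly6C spleen, 42.5, 42.4 and 38.0 in Ly6C tumor, 13.9, 12.6 and 19.8 in Ly6G spleen and 28.2, 28.7 and 19.1 in Ly6G tumor FPKM. Ly6G tumor library 3 was below Ly6G spleen library 3, while in Ly6C the tissues were well apart. The change was 1.81 ± 0.24 in Ly6C and 0.69 ± 0.24 in Ly6G (adjusted p = 0.0227), a call lost without Ly6G spleen library 1 (0.63 ± 0.28), Ly6G spleen library 2 (0.56 ± 0.27), Ly6G tumor library 1 (0.60 ± 0.28) or Ly6G tumor library 2 (0.59 ± 0.28). It was also lost after quantile normalization (0.46 ± 0.21) and with median-of-ratios factors (0.17 ± 0.20). Nolc1 (Nopp140), which chaperones snoRNPs to the nucleolus, stood at 2.84, 4.43 and 2.42 in Ly6C spleen, 19.5, 21.3 and 19.8 in Ly6C tumor, 3.16, 3.45 and 3.72 in Ly6G spleen and 16.8, 14.01 and 12.8 in Ly6G tumor FPKM. All tumor libraries were above all spleen libraries. The changes were 2.35 ± 0.16 and 1.80 ± 0.16. Nhp2, the remaining core protein, was the most abundant of the group in all 4 groups of libraries and changed by 2.68 ± 0.27 and 2.22 ± 0.27.

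Of 8 genes of the small-subunit processome and 40S maturation, 8 rose in Ly6C and 7 in Ly6G (medians 1.85 and 1.75). Rrp9, a protein of the U3 snoRNP that guides the first cuts of the precursor, had the largest change under both labels. It stood at 3.35, 5.16 and 2.56 in Ly6C spleen, 36.95, 32.0 and 35.3 in Ly6C tumor, 2.74, 2.75 and 4.61 in Ly6G spleen and 31.6, 23.3 and 31.8 in Ly6G tumor FPKM. Spleen libraries were all under 6 and tumor libraries all over 20. The changes were 2.97 ± 0.22 and 2.79 ± 0.22. Utp20, a large scaffold protein of the processome, whose E-box is shown above, stood at 0.869, 1.67 and 0.811 in Ly6C spleen, 7.84, 9.82 and 9.03 in Ly6C tumor, 0.741, 1.03 and 1.18 in Ly6G spleen and 8.29, 7.82 and 7.07 in Ly6G tumor FPKM. Tumor libraries of both labels were far above the spleen libraries. The changes were 2.24 ± 0.16 and 2.14 ± 0.16. Nat10, the acetyltransferase that modifies 18S ribosomal RNA, stood at 1.07, 1.96 and 1.12 in Ly6C spleen, 4.16, 4.21 and 3.55 in Ly6C tumor, 1.14, 1.12 and 1.75 in Ly6G spleen and 4.24, 3.58 and 3.59 in Ly6G tumor FPKM. The tissues were apart, and the labels overlapped within each tissue. The changes, 1.08 ± 0.16 and 1.04 ± 0.16, were close to each other.

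Utp14a, a processome protein that activates the helicase Dhx37, differed between the labels. It stood at 6.26, 8.07 and 6.31 in Ly6C spleen, 12.7, 15.0 and 13.3 in Ly6C tumor, 9.30, 8.64 and 8.68 in Ly6G spleen and 10.7, 10.9 and 8.48 in Ly6G tumor FPKM. In Ly6C the tumor libraries were clearly higher, and in Ly6G the tumor and spleen libraries overlapped. The change was 0.90 ± 0.13 in Ly6C (adjusted p = 4.31e-05). In Ly6G it passed as higher at an equal sum of all libraries (0.47 ± 0.15) and on the pan-leukocyte scale (2.51 ± 0.37), and as lower with median-of-ratios factors. The remaining 4 genes rose under both labels: Wdr43, a scaffold protein, by 2.66 ± 0.20 and 2.04 ± 0.20, Nop14 by 2.40 ± 0.19 and 1.87 ± 0.19, Rrp12 by 1.46 ± 0.19 and 1.63 ± 0.19, and Heatr1, which also acts in ribosomal DNA transcription, by 1.33 ± 0.21 and 1.37 ± 0.21.

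Of 10 genes of 60S assembly, 10 rose in Ly6C and 9 in Ly6G (medians 1.66 and 1.36). The PeBoW complex, made of Pes1, Bop1 and Wdr12, processes the 32S precursor, and its 3 genes rose under both labels. Of these, Wdr12 met the filter for testing only through tumor libraries, where it is high. Pes1, with an E-box next to its start site, stood at 13.2, 20.4 and 9.69 in Ly6C spleen, 49.8, 52.8 and 51.6 in Ly6C tumor, 11.3, 10.3 and 15.0 in Ly6G spleen and 40.4, 35.5 and 34.9 in Ly6G tumor FPKM. The highest spleen library, Ly6C library 2, remained well below every tumor library. The changes were 1.82 ± 0.21 and 1.53 ± 0.21. Bop1 stood at 12.6, 17.4 and 9.56 in Ly6C spleen, 41.1, 34.7 and 38.5 in Ly6C tumor, 7.70, 6.93 and 11.1 in Ly6G spleen and 32.6, 27.7 and 32.5 in Ly6G tumor FPKM. It showed the same order of groups as Pes1, with Ly6C tumor highest. The changes were 1.495 ± 0.20 and 1.76 ± 0.20. Wdr12 stood at 0.284, 0.418 and 0.183 in Ly6C spleen, 1.47, 1.66 and 1.58 in Ly6C tumor, 0.458, 0.435 and 0.506 in Ly6G spleen and 1.07, 1.02 and 1.10 in Ly6G tumor FPKM. It was a low gene throughout, and its 4 groups did not overlap between tissues. Its change was 0.99 ± 0.09 in Ly6C and 0.49 ± 0.09 in Ly6G, the smallest rise of the group there, and the latter turned to -0.13 ± 0.08 after quantile normalization.

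The other genes of the 60S group were spread over a wide range of changes. Nop16 had the largest change of the group and stood at 2.96, 5.50 and 2.47 in Ly6C spleen, 24.7, 24.0 and 24.1 in Ly6C tumor, 2.50, 2.94 and 2.54 in Ly6G spleen and 18.1, 15.8 and 16.97 in Ly6G tumor FPKM. Spleen values were under 6 and tumor values over 15. The changes were 2.50 ± 0.19 and 2.29 ± 0.19. Rrp1, an assembly factor, was among the most abundant of the 37 genes in spleen and stood at 23.2, 29.1 and 18.8 in Ly6C spleen, 42.8, 38.6 and 43.5 in Ly6C tumor, 11.6, 16.0 and 13.3 in Ly6G spleen and 26.3, 31.8 and 39.0 in Ly6G tumor FPKM. Tumor libraries were above spleen libraries in each label, and Ly6C spleen overlapped Ly6G tumor. The changes were 0.80 ± 0.18 and 1.18 ± 0.18. Wdr74 had the largest SE of the 37 genes and stood at 1.19, 4.60 and 0.556 in Ly6C spleen, 12.2, 10.6 and 11.9 in Ly6C tumor, 7.63, 1.65 and 7.62 in Ly6G spleen and 23.8, 3.26 and 9.23 in Ly6G tumor FPKM. The Ly6C tissues were apart, while the Ly6G tissues overlapped in part. The change was 2.23 ± 0.65 in Ly6C (adjusted p = 0.00755). Nop2, which methylates 28S ribosomal RNA, changed by 1.99 ± 0.16 and 1.64 ± 0.16, Grwd1 by 2.19 ± 0.20 and 1.98 ± 0.20, Brix1 by 1.504 ± 0.17 and 1.10 ± 0.17, and Gnl3 (nucleostemin), a nucleolar GTPase, by 1.37 ± 0.19 and 1.18 ± 0.19.

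The 4 multifunctional nucleolar genes all rose under both labels, with the highest medians of the 6 roles (2.48 and 2.16). Npm1 (nucleophosmin), a chaperone of the outer nucleolus that takes part in late 60S assembly and histone binding, had the largest change of the 37 genes in Ly6C. It stood at 16.5, 27.4 and 15.9 in Ly6C spleen, 208, 253 and 229.7 in Ly6C tumor, 22.6, 22.7 and 29.8 in Ly6G spleen and 166, 159 and 132 in Ly6G tumor FPKM. It was the most abundant of the 37 genes in both tumor groups, and its tumor values were separated from all spleen values. The change was 3.51 ± 0.20 in Ly6C (adjusted p = 1.92e-08) and 2.56 ± 0.20 in Ly6G (2.9e-07), or 11.6-fold and 6.08-fold as ratios of mean FPKM. Processed copies of Npm1 exist in the genome and how the authors counted fragments shared with them is not given in the sources used here. Mybbp1a, a nucleolar protein that binds MYB and acts on ribosomal RNA processing, had the largest change in Ly6G. It stood at 6.36, 10.6 and 5.55 in Ly6C spleen, 66.4, 69.5 and 63.0 in Ly6C tumor, 5.60, 5.82 and 8.67 in Ly6G spleen and 60.1, 47.6 and 50.8 in Ly6G tumor FPKM. Ly6C tumor was above Ly6G tumor in every library, and the spleen groups overlapped. The changes were 3.03 ± 0.21 and 2.82 ± 0.21. Ddx21, an RNA helicase that links polymerase I transcription to snoRNA release, stood at 6.36, 11.5 and 6.39 in Ly6C spleen, 27.1, 28.4 and 30.7 in Ly6C tumor, 5.57, 5.69 and 7.63 in Ly6G spleen and 25.0, 20.9 and 24.9 in Ly6G tumor FPKM. Its lowest tumor library was above its highest spleen library. The changes were 1.75 ± 0.20 and 1.76 ± 0.20.

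**Figure D5:**
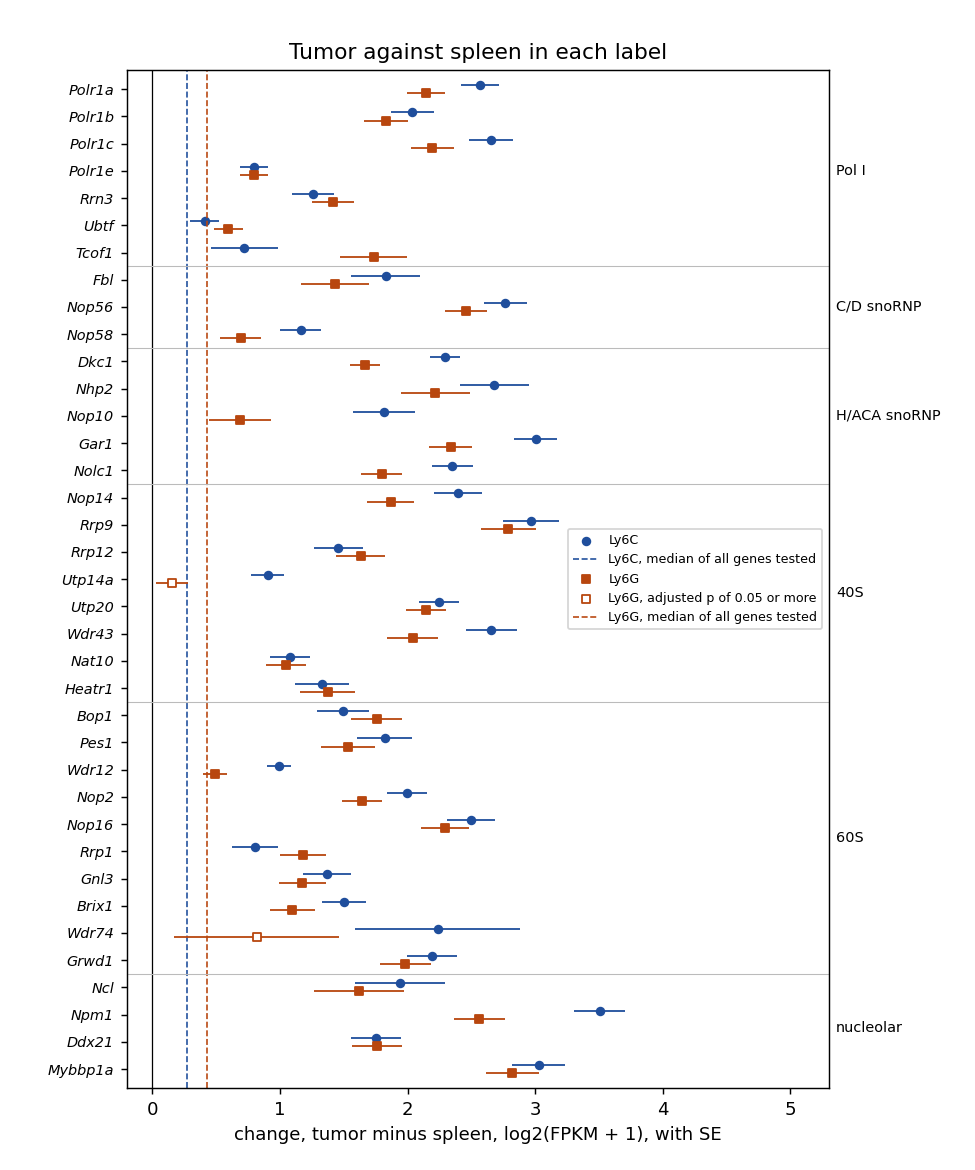
Change between tumor and spleen of each of the 37 genes with its SE, on the log2(FPKM + 1) scale, for Ly6C (circles) and Ly6G (squares); open symbols did not pass and dashed lines mark the median of all genes tested. In Ly6C every circle lies right of its dashed line (0.27), and in Ly6G all but Utp14a do.

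The change from spleen to tumor was set side by side for the 2 labels. Over the 37 genes the Ly6C and Ly6G changes had Pearson's r of 0.82 and Spearman's rho of 0.86, beside 0.92 and 0.89 over all 13610 genes, a description across genes of comparisons that share no library. On the deposited scale the change was larger in Ly6C for 28 of the 37 genes (75.7%) and for 42.9% of all genes. The median of the Ly6C change minus the Ly6G change was 0.31 over the 37 genes and -0.10 over all genes. It depended on scaling, at -0.07 and -0.39 at an equal sum. With S100a8 and S100a9 removed it was 0.06 and -0.29, and with median-of-ratios factors 0.48 and 0.04. The test of that difference (interaction, the Ly6C change minus the Ly6G change) passed on the deposited scale for 5 genes, all with a larger change in Ly6C, and for 0 in the other direction, in limma (7 and 1 at an unadjusted p under 0.05). Over all genes 6.02% passed in that direction and 15.8% in the opposite one. The 5 genes were Nop10 (1.13 ± 0.34, adjusted p = 0.0371), Npm1 (0.94 ± 0.28, 0.0341), Utp14a (0.75 ± 0.18, 0.0139), Dkc1 (0.63 ± 0.17, 0.0221) and Wdr12 (0.50 ± 0.13, 0.0191). The lowest value was that of Tcof1 (-1.01 ± 0.37, 0.0724), which did not pass. Among the 35 genes that met the filter in spleen libraries alone the count was 4, without Wdr12. These counts depend on scaling and on single libraries. They were 0 in favour of Ly6C and 3 in favour of Ly6G with all libraries at an equal sum (2.02% and 33.2% of all genes). They were 11 and 0 with median-of-ratios factors (12.5% and 10.6%), and 0 and 0 without library 3 of both tumor groups (2.13% and 8.28%), which had the highest mitochondrial shares. Leaving out Ly6C spleen library 2 gave 11 (8.05% of all genes). Leaving out Ly6C tumor library 2, Ly6C tumor library 3 or Ly6G tumor library 3 gave 2 each (4.32%, 3.73% and 4.17%). Without Ly6C spleen library 1, Ly6C spleen library 3 or Ly6G spleen library 3 there were 3 each (4.67%, 4.58% and 4.67%).

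In spleen, the labels differed in few of the 37 genes. Ly6C spleen was higher than Ly6G spleen for 4 genes and lower for 0 in limma (6 and 1, the latter Utp14a, at an unadjusted p under 0.05), where 22.1% of all genes were higher and 8.59% lower. The 4 were Tcof1 (1.12 ± 0.26, adjusted p = 0.00802), Rrp1 (0.74 ± 0.18, 0.00953), Rrn3 (0.50 ± 0.16, 0.0369) and Ubtf (0.36 ± 0.11, 0.0326), 3 of them in RNA polymerase I transcription, and for each all Ly6C spleen libraries were above all Ly6G spleen libraries. That ordering held for 5 of the 37 genes, and the reverse ordering for 2. It was more common among all genes, at 29.03%. The median difference of the 37 genes was 0.08, beside 0.11 for all genes, and its sign rested on single libraries: it was -0.13 without Ly6C spleen library 2, -0.05 without Ly6G spleen library 2 and -0.01 without Ly6G spleen library 1. With median-of-ratios factors 1 was higher and 7 lower (13% and 17.4% of all genes), and with an equal sum 8 and 0 (39.5% and 4.17%). Without Ly6C spleen library 2 it was 3 and 2 (17.3% and 8.5%), and without Ly6G spleen library 2 it was 2 and 0 (17.6% and 7.6%). Cell cycle genes were all higher in Ly6C spleen (14 of 14), while all 8 B cell and 10 erythroid genes were lower, and their part in these values was not tested.

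In tumor, the difference of all 37 genes was positive, from 0.04 (Polr1b) to 0.69 (Nop10), with a median of 0.33 beside 0.04 for all genes. Of the 37, 2 passed as higher in Ly6C tumor and 0 as lower in limma (14 and 0 at an unadjusted p under 0.05), against 5.8% and 8.7% of all genes. They were Dkc1 (0.42 ± 0.12, adjusted p = 0.038) and Wdr12 (0.32 ± 0.09, 0.0412), the latter 1 of the 2 genes that met the filter only through tumor libraries, so that 1 of the other 35 passed. For 24 genes all Ly6C tumor libraries were above all Ly6G tumor libraries, an ordering that 24.1% of all genes showed. The number that passed was 0 when any 1 of the 6 tumor libraries was left out (0.58% to 2.56% of all genes). It was 8 without Ly6C spleen library 2 and 13 in a fit of the 2 tumor groups alone, where 9.14% and 10.3% of all genes passed as higher. It was 0 at an equal sum and 37 on the pan-leukocyte scale, where 0.794% and 76.6% of all genes did. On the deposited scale 17 of 20 pan-leukocyte genes were lower in Ly6C tumor than in Ly6G tumor, and their part in these differences was not tested. The comparisons between labels use the same libraries as those between tissues.

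Most other genes of the pathway were higher in tumor as well. Of 133 other ribosome biogenesis genes, 130 were tested, with a median change of 1.13 under each label. In Ly6C tumor 113 were higher and 4 lower (46.2% and 30.5% of all genes), and in Ly6G tumor 108 higher and 4 lower (51.5% and 24.7%). In Ly6C the passing genes were 7 higher and 1 lower of 9 for RNA polymerase I machinery, 7 and 1 of 9 for snoRNP assembly, 35 and 1 of 41 for the small subunit, 45 and 0 of 49 for the large subunit, and 19 and 1 of 22 for ribosomal RNA trimming. In Ly6G they were 6 and 0, 8 and 1, 31 and 2, 47 and 0, and 16 and 1, in the same order. The largest rises were those of Nol10, a processome protein, from 2.17 ± 0.439 to 36.3 ± 3.799 FPKM in Ly6C (3.56 ± 0.15) and from 1.36 ± 0.1802 to 28.4 ± 4.87 in Ly6G (3.63 ± 0.15), and Rrs1, which joins the 5S particle to the 60S precursor (3.37 ± 0.21 and 3.67 ± 0.21). In the other lists Taf1a, a subunit of the promoter selectivity factor SL1, rose most for RNA polymerase I (1.72 ± 0.13 and 1.53 ± 0.13). Among snoRNP assembly factors Znhit6 led in Ly6C (2.78 ± 0.20) and Naf1 in Ly6G (2.21 ± 0.14). For trimming, Rpp38, an RNase MRP subunit, led in Ly6C (2.09 ± 0.18) and the exosome subunit Exosc6 in Ly6G (2.36 ± 0.26). The exceptions were few. Pih1d1, a cochaperone of snoRNP assembly, fell by 1.59 in Ly6C and 1.45 in Ly6G, and Pop7, an RNase MRP subunit, by 0.86 and 1.09, and on the pan-leukocyte scale, which moves all genes up, both were positive and below the medians of all genes of 3.15 and 2.24 (Pih1d1 1.95 and 1.10, Pop7 2.52 and 1.28). Ttf1, which ends RNA polymerase I transcription, fell by 0.33 in Ly6C, and Utp23, a processome protein, fell by 0.70 in Ly6G. Riok1, a kinase of 40S maturation, fell by 0.26 in Ly6C and was also lower in Ly6G tumor (2.10 ± 0.201 FPKM) than in Ly6G spleen (3.17 ± 0.469, SD, n = 3). Thus 3 genes, Pih1d1, Pop7 and Riok1, passed as lower under both labels. On the pan-leukocyte scale Ttf1 (2.40 in Ly6C), Utp23 (1.19 in Ly6G) and Riok1 (2.58 in Ly6C and 1.41 in Ly6G) were likewise positive and below those medians.

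Genes that act beside the pathway were higher too. All 10 tested snoRNA host genes, noncoding genes whose introns carry snoRNAs, were higher in Ly6C tumor and 9 of 10 in Ly6G tumor, led by Zfas1 (3.25 ± 0.22) in Ly6C and Snhg6 (2.25 ± 0.20) in Ly6G. Of 30 cytosolic ribosomal protein genes, 30 were higher in Ly6C tumor and 28 in Ly6G tumor, with medians of 2.17 and 1.31, and Rps7, a 40S protein, rose most (3.65 ± 0.17 and 2.97 ± 0.17). Myc, the transcription factor, went from 10.2 ± 3.14 to 273 ± 46.1 FPKM in Ly6C (4.64 ± 0.28) and from 12.1 ± 5.06 to 248 ± 58.8 in Ly6G (4.29 ± 0.28), the only tested gene of its family of 3. Between the labels, 18 of the 130 other ribosome biogenesis genes were higher in Ly6C spleen than in Ly6G spleen, where 22.1% of all genes were. In tumor 11 were higher in Ly6C than in Ly6G, against 5.8% of all genes. By limma 0 were lower in either tissue, against 8.59% of all genes in spleen and 8.7% in tumor (5 in spleen and 0 in tumor were lower at an unadjusted p under 0.05). The interaction passed for 6 with a larger change in Ly6C and 2 with a larger change in Ly6G, against 6.02% and 15.8% of all genes.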

How the data were processed

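Gene expression was measured by paired-end sequencing of total RNA in 12 mouse samples, 3 for each marker (Ly6C, Ly6G) in each tissue (spleen, tumor), per the labels. The authors deposited 1 matrix of FPKM values. HISAT2 2.0.5, featureCounts 1.5.0-p3 and GRCm38 are named, per the submitters' processing notes; the tool that made the FPKM is not given in the sources used here. Counts were not used here, so depth is unknown and no count test was run. From the FPKM, log2(FPKM + 1) was computed for the 13610 genes that reached 1 FPKM in 3 or more libraries. The 570 entries without an Ensembl identifier (0.463% to 1.04% of FPKM) were left out. One limma 3.58.1 model over the 4 groups (R 4.3.3, mean-variance trend, 8 residual and 3.40 prior degrees of freedom) gave all comparisons and the interaction, two-sided, with Benjamini-Hochberg adjustment over all genes of a comparison and a threshold of 0.05. The script was tested on simulated data.

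The 37 genes, the other lists and the tests were chosen with earlier results of these data known. Of 311 listed genes 303 were matched by symbol. Values per library are given for a set of core genes of each role, for the passing gene with the highest and lowest change in each role, and for genes whose interaction passed; in other lists the passing gene with the largest rise and fall is named. Wdr74 and the snoRNA genes were added after their values were seen. Promoters came from RefSeq (GRCm38.p6). Alternatives were the pseudocount, the filter, 4 scalings, the fitted groups, a replicate block and leaving out libraries. Leaving out pairs of libraries and removing S100a8 and S100a9 were chosen after seeing the data.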

Additional observations from a re-analysis of the deposited data

Results flagged for a closer look

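For 5 of the 37 genes the difference between the Ly6C and the Ly6G change from spleen to tumor passed its own test, the interaction in limma, with the larger change in Ly6C in each (6.02% of all genes passed in that direction and 15.8% in the opposite one). Among the 35 genes that met the expression filter in spleen libraries alone it passed for 4, since Wdr12 met it only through tumor libraries. Dkc1 (dyskerin) differed by 0.63 on the log2 scale, Nop10 by 1.13, Utp14a by 0.75, Wdr12 by 0.50 and Npm1 (nucleophosmin) by 0.94. Of the alternatives that gave a value, the call held in 18 of 24 for Dkc1, 11 of 24 for Nop10, 21 of 24 for Utp14a, 21 of 23 for Wdr12 and 13 of 24 for Npm1. With 3 libraries a group, a single library far from the others of its group was not tested for.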

How the results depend on the processing

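The rise of the 37 genes in tumor was found under every alternative run: 33 to 37 rose in Ly6C and 31 to 37 in Ly6G. Of all genes, 26.9% (no filter) to 90.5% (pan-leukocyte scale) were higher in Ly6C, and 31.3% to 88.6% in Ly6G under those settings. The 37 in Ly6G came from the pan-leukocyte scale, where the count says little about the 37. A filter of 5 FPKM left 33 genes to test. Of those 33 genes, which have a value under all 25 alternatives, the calls of 31 in Ly6C (all but Ubtf and Tcof1) and 29 in Ly6G (all but Ubtf, Nop10, Utp14a and Wdr74) held in each. Polr1e, Nat10, Nop58 and Wdr12 had no value at the 5 FPKM filter, and of these the Ly6G calls of Nop58 and Wdr12 were lost after quantile normalization. In Ly6G 1 gene fell with median-of-ratios factors (Utp14a, -0.34), and Wdr12 turned to -0.13 after quantile normalization. Differences between the labels depended far more on the settings, and the cause was not tested. The depth behind each value is unknown.

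Of the 130 other ribosome biogenesis genes, those lower in Ly6C tumor numbered 2 at a filter of 5 FPKM, 11 with median-of-ratios factors, 9 after quantile normalization, 0 on the pan-leukocyte scale, 2 without library 3 of both tumor groups, and 11 with S100a8 and S100a9 removed (2 to 4 leaving out 1 library). In Ly6G these were 2, 15, 13 and 0 for the first 4 of these settings (4 to 5 leaving out 1 library). Over these settings 3.81% to 38.8% of all genes were lower in Ly6C and 3.76% to 37.6% in Ly6G. Between labels in spleen, the 37 genes higher in Ly6C numbered 8 at an equal sum (TPM, 39.5% of all genes), 1 with median-of-ratios (13%) and 2 after quantile normalization (14.2%). They numbered 0 on the pan-leukocyte scale (1.68%), 1 in a fit of 2 groups (13.5%) and 2 without the 2 spleen libraries in which most of the genes were highest (16.7%). Those lower numbered 7, 3 and 2 with median-of-ratios (17.4%), quantile (12.6%) and without those 2 libraries (6.46%). Leaving out 1 library gave 2 to 4 higher (17.3% to 23.2%) and 0 to 2 lower (6.23% to 8.5%). Of the other genes, 47, 7, 8, 1 and 5 were higher (equal sum, median-of-ratios, quantile, pan-leukocyte, 2 groups) and 36 with S100a8 and S100a9 removed, where 30.4% of all genes were (8 to 31 leaving out 1 library). Lower were 18 with median-of-ratios, 8 after quantile normalization, and 1 each with pseudocounts of 0.1 and 5, no filter, and without library 3 of both tumor groups (0 to 3 leaving out 1 library). Of all genes, 4.2% (no filter) to 17.4% (median-of-ratios) were lower in these settings.

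Between labels in tumor, the 37 genes higher in Ly6C numbered 0 at a pseudocount of 0.1 (3.98% of all genes), 9 at 5 (9.1%) and 0 without a filter (1.49%). They numbered 0 at an equal sum (0.794%), 5 with median-of-ratios (5.83%), 7 after quantile normalization (8.99%) and 37 on the pan-leukocyte scale (76.6%). They were 13 with 2 groups (10.3%), 13 without the 2 spleen libraries (11.3%), 0 without the 2 tumor libraries (0.0661%), 0 with S100a8 and S100a9 removed (0.955%) and 0 to 8 leaving out 1 library (0.58% to 9.14%). Of the other genes these were 4, 29, 3, 0, 36 (quantile), 129, 31, 38, 0 and 1 (0 to 33 leaving out 1 library). The interaction passed with a larger change in Ly6C for 3 of the 37 genes without a filter (2.21% of all genes), 0 at an equal sum (2.02%), 11 with median-of-ratios (12.5%) and 11 after quantile normalization (11.8%). It passed for 9 on the pan-leukocyte scale (11%), 10 without the 2 spleen libraries (6.92%), 0 without the 2 tumor libraries (2.13%), 1 with S100a8 and S100a9 removed (3.48%) and 2 to 11 leaving out 1 library (3.73% to 8.05%). Of the other genes it passed for 2, 0, 27, 31, 15, 13, 0 and 1 in that order (2 to 19 leaving out 1 library). It passed with a larger change in Ly6G for 3, 1 and 1 of the 37 at an equal sum (33.2%), without the 2 spleen libraries (15%) and with S100a8 and S100a9 removed (27%), and for 0 to 1 leaving out 1 library (11.7% to 15.4%). In that direction it passed for 12 others at an equal sum, 0 on the pan-leukocyte scale, 1 without the 2 tumor libraries and 9 with S100a8 and S100a9 removed (2 to 3 leaving out 1 library).

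Of all genes passing between labels, the share higher was 72.0% in spleen (90.5% at an equal sum, 42.9% with median-of-ratios), 40.02% in tumor (6.99% and 40.2%) and 27.6% for the interaction (5.74% and 54.1%). On the pan-leukocyte scale (median of all genes 3.15 in Ly6C and 2.24 in Ly6G) these changes in Ly6C turned positive and stayed below that median: Ttf1 2.40, Pih1d1 1.95, Riok1 2.58, Pop7 2.52, Utp23 2.66, Ptprc 0.48, Hbb-bs 0.58 and Mki67 1.24. In Ly6G Ttf1 was at 1.67, Pih1d1 1.10, Riok1 1.41, Pop7 1.28, Utp23 1.19, Ptprc 0.86 and Mki67 0.95. Ptprc is 1 of the 20 genes that set this scale, so its values there largely follow from the scaling. Ttf1 between labels in tumor was at 0.83, and the interaction of Mki67 at 0.29.

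A replicate block, with the library number as a block, left 1 of the 37 genes higher in Ly6C tumor than in Ly6G tumor, 5 of the other genes there, and 4 interactions. With it, 4.09% of all genes were higher in Ly6C tumor, and 5.3% passed the interaction with a larger change in Ly6C. Correlations of deviations between libraries of the same number ran from -0.36 to 0.279 over 18 pairs (median 0.0203). For different numbers they ran from -0.393 to 0.427 over 36 pairs (median -0.0235). With 3 libraries a group this cannot show or exclude shared animals. Since the labels tie no number to an animal, the numbers are not taken as pairs. The block changed no other count of calls by over 1.5 times.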
